A study of Mus musculus with 7 samples.

Results

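Transcripts of 8 genes of the voltage-gated sodium channel complex were followed in the prefrontal cortex of hDISC1AA/+ and WT mice. They were 4 alpha-subunit genes (Scn1a, Scn2a, Scn3a and Scn8a), 3 beta-subunit genes (Scn2b, Scn3b and Scn4b) and Ank3, whose product ankyrin-G anchors the channels and is not itself a subunit. They were chosen by name, through the Ensembl identifiers of these symbols, and make up 8 of the 43626 identifiers in the deposited table; Scn2a is called Scn2a1 in older annotations. All 8 passed the filter on low values. The hDISC1AA/+ group held 4 libraries and the WT group 3. All mice were male C57BL/6J animals aged 8 weeks, and total RNA came from prefrontal cortex frozen after removal. The genotype hDISC1AA/+ is given here as the labels spell it; they do not describe the allele further, and they do not say that each library came from a separate mouse, so the p-values below measure the spread between these 7 libraries, which may in part be technical.

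Voltage-gated sodium channels open on depolarization and carry the inward current of the action potential's rising phase. The alpha subunit forms the pore and contains the voltage sensors and the inactivation gate, while beta subunits adjust gating, surface expression and cell adhesion. Ankyrin-G holds the channels at the axon initial segment and at nodes of Ranvier, the sites where action potentials start and are renewed. In cortex, Scn2a and Scn8a are the main alpha genes of excitatory neurons, Scn1a is prominent in inhibitory interneurons, and Scn3a is mainly a gene of the fetal and neonatal brain.

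The alpha genes are close copies of one another, which bears on how reads can be assigned to them. The stretch shown codes for the part of the loop between the second and the third domain that binds ankyrin-G, the link between the alpha genes and Ank3. It is 84 bases long and lies within exon 17 of 27, in GRCm38 coordinates at chr2:66317822-66317905 (minus strand) for Scn1a, chr2:65717766-65717849 (plus strand) for Scn2a, chr2:65494941-65495024 (minus strand) for Scn3a and chr15:101015993-101016076 (plus strand) for Scn8a. Capitals mark the acidic core of the ankyrin-binding motif. The sequences were read from GENCODE M21 transcripts, 5′ to 3′ along the coding strand.
Scn1a: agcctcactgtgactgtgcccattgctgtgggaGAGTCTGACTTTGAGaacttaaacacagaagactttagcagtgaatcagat
Scn2a: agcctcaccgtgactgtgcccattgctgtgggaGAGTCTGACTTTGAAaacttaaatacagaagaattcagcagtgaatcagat
Scn3a: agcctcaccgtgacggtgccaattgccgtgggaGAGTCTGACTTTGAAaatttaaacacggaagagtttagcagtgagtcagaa
Scn8a: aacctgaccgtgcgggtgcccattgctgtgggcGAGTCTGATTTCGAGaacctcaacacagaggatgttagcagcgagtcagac

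All 4 genes shared the base at 60 of 84 positions of this loop. Scn8a differed from the other alpha genes at 17 to 19 positions, against 5 between Scn1a and Scn2a and 10 between Scn3a and each of those. Over the whole coding sequence, Scn1a, Scn2a and Scn3a were 81.9% to 83.9% identical to one another and 74.9% to 75.3% identical to Scn8a. Of the 50-base windows of the longest coding transcript, 5.48% in Scn1a, 7.87% in Scn2a and 8.53% in Scn3a occurred unchanged in a transcript of another gene, mostly of Scn1a, Scn2a, Scn3a or Scn9a. The share was 0.0527% in Scn8a and 0.947% in Scn2b, and no such window was found in Scn3b, Scn4b or Ank3. With 100-base windows the shares were lower, at 1.22% in Scn1a, 1.53% in Scn2a and 2.95% in Scn3a, so they depend on the window length. How reads with several matches were handled is unknown. Those from shared stretches of Scn1a, Scn2a and Scn3a could have been dropped or counted as whole reads for any gene they matched. The shares do not measure an error, and the effect on the values of these 3 genes was not tested.

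The genes lie in clusters. Scn3a (ENSMUSG00000057182, chr2:65457118-65567627, minus strand), Scn2a (ENSMUSG00000075318, chr2:65620771-65767447, plus strand) and Scn1a (ENSMUSG00000064329, chr2:66270778-66440840, minus strand) follow one another on chromosome 2. Scn2b (ENSMUSG00000070304, chr9:45117782-45130070) and Scn4b (ENSMUSG00000046480, chr9:45138395-45154152) are neighbours on the plus strand of chromosome 9, which also carries Scn3b (ENSMUSG00000049281, chr9:40269217-40291618, plus strand). Scn8a (ENSMUSG00000023033, chr15:100869858-101045938) and Ank3 (ENSMUSG00000069601, chr10:69398773-70027438) are on the plus strand of chromosomes 15 and 10. The library kit is not described as strand-specific, so reads of a gene and of an overlapping gene on the opposite strand cannot be told apart. The span of Scn1a overlaps that of Gm13630, which was listed at 38.5 to 99.7 normalized counts. The genes that overlap the spans of Scn3a (Gm13595) and Scn2b (Gm10684) were at 1.08 and 3.11 or below. Pseudogenes or other annotated genes also overlap the spans of Scn3b (Gm47266) and Ank3 (Gm18636 and Gm46231), but no values were listed for them. Overlap was taken from gene start and end, so whether exon sequence is shared was not examined.

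The libraries held 33512557 to 63845254 reads assigned to genes, and 1628 to 28383 reads lay behind each value of the 8 genes. One column, with a number that no label gives, is called the unnumbered hDISC1AA/+ library. Its group was inferred from the ending of its name, which stands in the titles of hDISC1AA/+ samples only. The others carry the title of WT replicate 1, 2 or 3 or hDISC1AA/+ replicate 1, 3 or 4. No column carries the title of hDISC1AA/+ replicate 2. WT replicate 1, the deepest, stood apart in cell-type markers: its 9 oligodendrocyte markers summed to 140888 normalized counts, against 40459 to 52412 in the other 6 libraries. It also had the highest sums of 7 astrocyte markers (258295, against 150312 to 198982) and 6 microglia markers (13560, against 8880 to 10568), and the lowest sum of 7 endothelial and mural markers (3844, against 8853 to 11581). hDISC1AA/+ replicate 1 had 1.94% of its reads in mitochondrially encoded genes, against 5.14% to 6.94% elsewhere, and a share of 0.358 of the variance between genes of its deviations could be fitted by GC content and length, against at most 0.119 in any other library. Results are therefore also given without these libraries. Disc1, the mouse gene that shares its name with the altered protein, averaged 76.7 ± 11.2 normalized counts in hDISC1AA/+ and 76.0 ± 31.2 in WT libraries (SD, n = 4 and 3); whether the altered allele feeds reads to this identifier is not given, so it does not check the labels. The labels name no batch.

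None of the 8 genes differed between hDISC1AA/+ and WT cortex past the threshold. Each of the 4 alpha genes had a lower mean in hDISC1AA/+, from 0.07 lower on the log2 scale for Scn8a to 0.23 lower for Scn2a. Ank3 also had a lower mean, by 0.17, and was the only one of the 8 whose hDISC1AA/+ and WT libraries did not overlap. The beta genes lay within 0.10 of equality, and the widest 95% confidence interval among the 8, that of Scn3a, reached 0.55 lower and 0.37 higher.

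The comparison asked whether adult cortex of this genotype differs in sodium channel transcripts. The test was two-sided, by limma on log2(normalized count + 1); p-values were adjusted over all 17670 genes tested by the Benjamini-Hochberg method, and fold changes are hDISC1AA/+ minus WT on that scale. At an adjusted p under 0.05, 0 of the 8 genes passed, with a background of 0% of all tested genes (0 of 17670). At an unadjusted p under 0.05, 0 of the 8 passed by limma, by edgeR and by DESeq2, beside 2.44% of tested genes by limma, 2.66% by edgeR and 2.13% by DESeq2. Of the 8 genes, 6 had a lower mean in hDISC1AA/+, where 52.2% of all tested genes did. Their median log2 fold change was -0.09, against -0.01 over all tested genes. The 1 gene without overlap, Ank3, stands beside a background of 2.84% of tested genes that were lower without overlap.

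**Figure D1:**
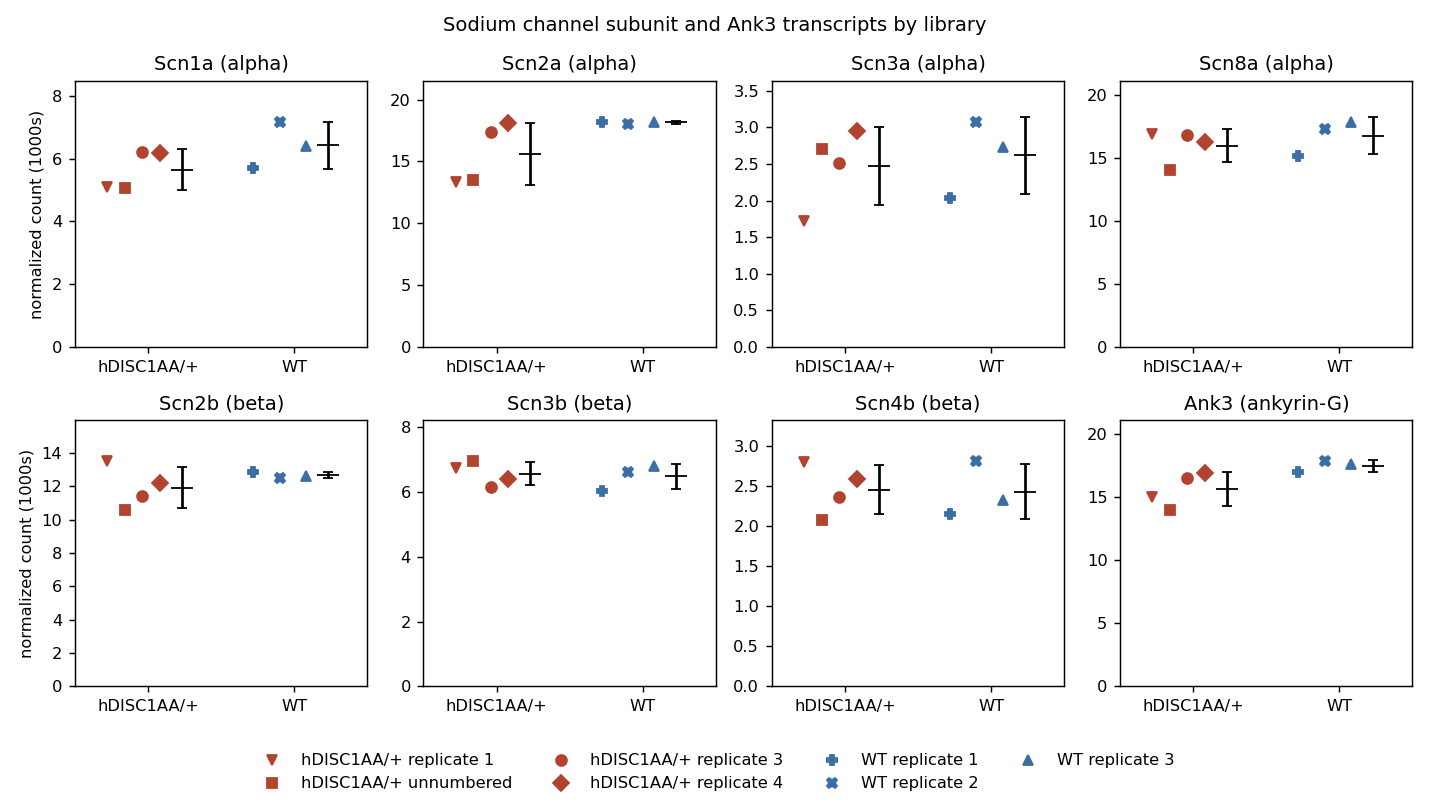
Normalized counts (vertical axes, each starting at 0) of the 8 genes in the 4 hDISC1AA/+ libraries (left, red) and the 3 WT libraries (right, blue), with 1 marker shape per library and the mean ± SD as black bars. The Scn2a values of hDISC1AA/+ replicate 1 and the unnumbered library, 13358 and 13508, sit below the other 5, and in the Ank3 panel every hDISC1AA/+ value, up to 16859, is below the lowest WT value of 16935.

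Scn2a encodes the alpha subunit that dominates the initial segment of excitatory neurons early in life and remains there and in dendrites in adults. Its normalized counts were 13358 in hDISC1AA/+ replicate 1, 13508 in the unnumbered hDISC1AA/+ library, 17385 in hDISC1AA/+ replicate 3 and 18094 in hDISC1AA/+ replicate 4, against 18217, 18003 and 18216 in WT replicates 1, 2 and 3. A pair of hDISC1AA/+ libraries was low, and the other pair lay next to or among the WT values, so the groups overlapped. The means were 15586 ± 2504 in hDISC1AA/+ and 18145 ± 123 in WT (SD, n = 4 and 3). The log2 fold change was -0.23 (95% confidence interval -0.52 to 0.05), with an adjusted p of 0.974 by limma. The exact permutation test over the 35 divisions of the libraries, whose smallest p is 0.0286, gave a two-sided p of 0.2 for Scn2a.

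The Scn2a values shifted when libraries were corrected for GC content and transcript length. Both were fitted together, so their parts cannot be told apart. The longest transcript of Scn2a has 8935 bases, against a median of 3137 over tested genes. The same transcript is 43.4% G and C, below the median of 49.6% over tested genes. hDISC1AA/+ replicate 1 is the library in which GC content and length explained most. After correction of each library for both, the log2 values of Scn2a were 14.04, 13.74, 14.05 and 14.05 in hDISC1AA/+ replicate 1, the unnumbered library and replicates 3 and 4, against 14.19, 13.99 and 14.04 in WT replicates 1, 2 and 3. hDISC1AA/+ replicate 1, the lowest before correction, was then no longer low, and the unnumbered library was the lowest. The corrected log2 fold change was -0.11 (-0.33 to 0.12).

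Scn1a encodes the alpha subunit on which fast-spiking inhibitory interneurons rely. It had 5100, 5073, 6223 and 6190 normalized counts in hDISC1AA/+ replicate 1, the unnumbered library and replicates 3 and 4, against 5686, 7177 and 6407 in WT replicates 1, 2 and 3. The same pair of hDISC1AA/+ libraries was lowest as for Scn2a, WT replicate 2 was the highest, and the groups overlapped. For Scn1a the log2 fold change was -0.19 (-0.46 to 0.09), with an adjusted p of 0.974 by limma and a p of 0.229 by the exact permutation test. Corrected for GC content and length, it was -0.06 (-0.28 to 0.15).

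Inhibitory neuron markers did not share the order of Scn1a. Their mean log2 deviation from the 7-library mean was -0.17, 0.05, -0.0037 and 0.07 in hDISC1AA/+ replicate 1, the unnumbered library and replicates 3 and 4, against 0.11, 0.07 and -0.12 in WT replicates 1, 2 and 3. The unnumbered library, where Scn1a was lowest (5073), was thus slightly above the mean for these 9 markers, none of which was at 0 in any library. hDISC1AA/+ replicate 1, where Scn1a was nearly as low (5100), was the lowest for them. Single markers were mixed. In the unnumbered library Lhx6 was the lowest and Slc32a1 the highest of the 7 libraries. In bulk tissue, fewer cells of a type and less RNA per cell cannot be told apart.

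Scn8a encodes the alpha subunit of the mature initial segment and of nodes, where it carries high-frequency firing. Its values were 16866, 14021, 16775 and 16252 normalized counts in hDISC1AA/+ replicate 1, the unnumbered library and replicates 3 and 4, against 15133, 17306 and 17877 in WT replicates 1, 2 and 3. The unnumbered library alone was low on the hDISC1AA/+ side, and WT replicate 1 lay below 3 of the 4 hDISC1AA/+ libraries. Scn8a had a log2 fold change of -0.07 (-0.30 to 0.16), with an adjusted p of 0.978 by limma. Its longest transcript holds 50.8% G and C, near the median, and the corrected value was -0.04 (-0.23 to 0.15). Without the unnumbered library the log2 fold change was -0.01.

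Scn3a, the alpha gene of immature neurons, had 1722, 2704, 2506 and 2944 normalized counts in hDISC1AA/+ replicate 1, the unnumbered library and replicates 3 and 4, against 2041, 3078 and 2736 in WT replicates 1, 2 and 3. Each group had 1 low library, hDISC1AA/+ replicate 1 and WT replicate 1, and the remaining libraries of the groups overlapped. Its log2 fold change was -0.09 (-0.55 to 0.37), with an adjusted p of 0.993 by limma. The sign turned to 0.07 (-0.18 to 0.31) after correction for GC content and length, to 0.07 without hDISC1AA/+ replicate 1 and to 0.03 without WT replicate 2. By mean log2 deviation, markers of immature neurons were lowest in hDISC1AA/+ replicate 1, at -0.51. They were highest in WT replicate 1, at 0.37, where Scn3a was also low. Single markers were mixed. In hDISC1AA/+ replicate 1, Dcx, Sox11 and Igfbpl1 were lowest of the 7 libraries, while Sox4, Stmn2 and Tubb3 were highest of the hDISC1AA/+ group. In WT replicate 1, Dcx was the lowest of the WT group, and the other markers were the highest of all libraries. The summed markers were lowest in hDISC1AA/+ replicate 3. Their part in the Scn3a values was not tested.

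**Figure D2:**
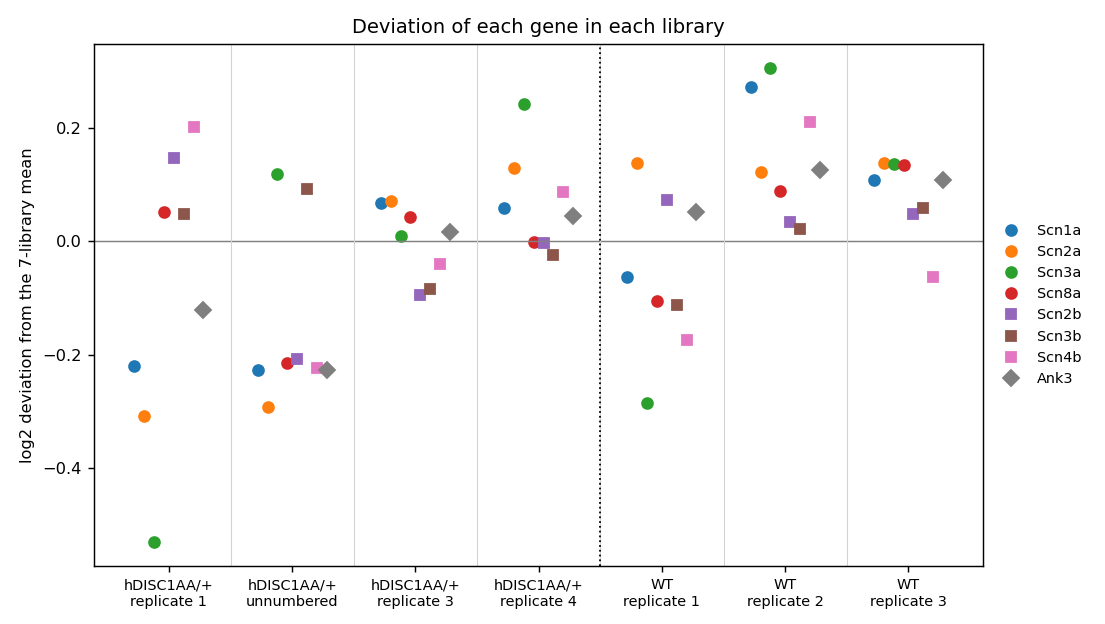
Log2 deviation of each of the 8 genes from its own 7-library mean (vertical axis) in the 4 hDISC1AA/+ libraries (left of the dotted line) and the 3 WT libraries (right), with circles for alpha genes, squares for beta genes and diamonds for Ank3. In the unnumbered hDISC1AA/+ library 6 of 8 genes lie below 0, and in WT replicate 2 all 8 lie above 0.

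The beta genes had no common direction. Scn2b encodes a beta subunit linked to the alpha subunit by a disulfide bond. It had 13517, 10574, 11430 and 12184 normalized counts in hDISC1AA/+ replicate 1, the unnumbered library and replicates 3 and 4, against 12841, 12502 and 12630 in WT replicates 1, 2 and 3. The hDISC1AA/+ libraries spread to both sides of the narrow WT range, with replicate 1 highest of all and the unnumbered library lowest. The log2 fold change of Scn2b was -0.09 (-0.32 to 0.13), with an adjusted p of 0.974 by limma. Corrected for GC content and length, it was -0.12 (-0.33 to 0.09), the lowest corrected value of the 8 genes.

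Scn3b encodes a beta subunit held to the channel without a disulfide bond. Its normalized counts were 6745, 6957, 6152 and 6411 in hDISC1AA/+ replicate 1, the unnumbered library and replicates 3 and 4, against 6033, 6620 and 6792 in WT replicates 1, 2 and 3. The ranges nearly coincided, and the unnumbered library, low for most of the other genes, was here the highest. Scn3b had a log2 fold change of 0.02 (-0.18 to 0.22), with an adjusted p of 0.998 by limma, and it was -0.05 without WT replicate 1 and hDISC1AA/+ replicate 1.

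Scn4b encodes a disulfide-linked beta subunit whose cytoplasmic tail can act as an open-channel blocker and which is abundant in striatum and in fast-spiking cells. It had 2791, 2077, 2359 and 2578 normalized counts in hDISC1AA/+ replicate 1, the unnumbered library and replicates 3 and 4, against 2149, 2807 and 2321 in WT replicates 1, 2 and 3. Each group had its own high library, hDISC1AA/+ replicate 1 and WT replicate 2, at nearly the same level. The log2 fold change was 0.02 (-0.29 to 0.32), with an adjusted p of 0.998 by limma; it was -0.13 without WT replicate 1 and hDISC1AA/+ replicate 1 and -0.01 after the GC content and length correction.

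Striatal markers, listed because Scn4b is abundant in striatum, summed to 11827 to 13817 normalized counts in hDISC1AA/+ and 11858 to 19794 in WT libraries. None of the 10 was at 0 in any library. Their mean log2 deviation was -0.0156, -0.14, -0.06 and -0.08 in hDISC1AA/+ replicate 1, the unnumbered library and replicates 3 and 4, against 0.51, -0.22 and 0.01 in WT replicates 1, 2 and 3. By this mean, within hDISC1AA/+ the library highest for these markers was also highest for Scn4b and the lowest also lowest. By summed counts this did not hold, with replicate 3 highest (13817) and replicate 4 lowest (11827) of that group. Within WT, by either measure, the highest for the markers was lowest for Scn4b and the lowest was highest. The part of striatal tissue in the Scn4b values was not tested.

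Ank3, the anchor of the channels at the initial segment, had 15020, 13963, 16529 and 16859 normalized counts in hDISC1AA/+ replicate 1, the unnumbered library and replicates 3 and 4, against 16935, 17839 and 17618 in WT replicates 1, 2 and 3. Every hDISC1AA/+ library was below every WT library, but the gap between the groups, from 16859 to 16935, was small beside the spread within hDISC1AA/+. The means were 15593 ± 1350 in hDISC1AA/+ and 17464 ± 471 in WT (SD, n = 4 and 3), and the log2 fold change was -0.17 (-0.38 to 0.04). The adjusted p was 0.974 by limma, and the exact permutation test gave 0.114.

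After the correction for GC content and length the Ank3 groups only just did not overlap, where 2.72% of 17543 genes were lower without overlap. The corrected log2 values were 14.010, 13.807, 13.988 and 13.981 in hDISC1AA/+ replicate 1, the unnumbered library and replicates 3 and 4, against 14.149, 14.028 and 14.011 in WT replicates 1, 2 and 3. The highest hDISC1AA/+ value and the lowest WT value thus differed in the last printed digit only, and the corrected fold change was -0.12 (-0.30 to 0.07). Ank3 was the only one of the 8 genes with an unadjusted p under 0.05 when libraries were weighted by their agreement with the rest. That fit of limma gave 0.0464 (adjusted p 0.478), beside 10.3% of all tested genes at that level. Leaving out hDISC1AA/+ replicate 4 brought Scn2a to an unadjusted p of 0.0373 (adjusted p 0.949 by limma), beside 467 of 17463 tested genes at that level, and brought none of the other 7 genes under 0.05.

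**Figure D3:**
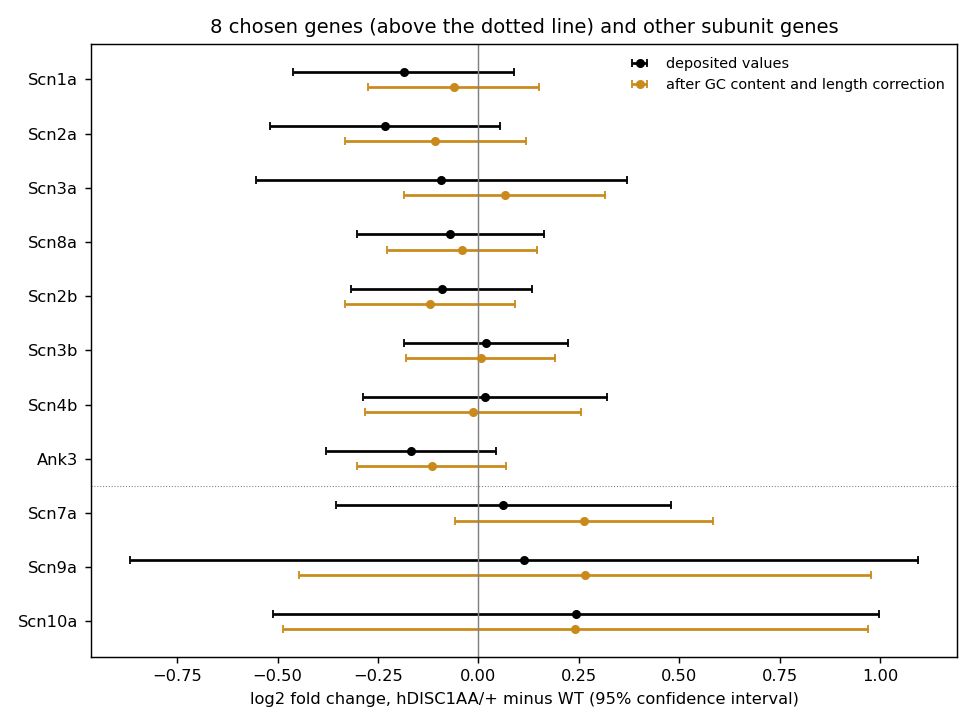
Log2 fold change of hDISC1AA/+ over WT (horizontal axis) with its 95% confidence interval from limma, for the 8 genes (above the dotted line) and 3 further sodium channel genes (below), from the deposited values (black) and after each library was corrected for GC content and length (ochre). Every interval includes 0, and the Scn1a and Scn2a estimates lie nearer 0 after correction, at -0.06 and -0.11.

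The low values were spread unevenly over the hDISC1AA/+ libraries. The unnumbered library was the lowest of the 7 for 5 of the 8 genes (Scn1a, Scn8a, Scn2b, Scn4b and Ank3), with a median log2 deviation of -0.22. hDISC1AA/+ replicate 1 was the lowest for Scn2a and Scn3a and had 4 of 8 genes below their mean. In hDISC1AA/+ replicates 3 and 4 the medians were 0.01 and 0.05, with no gene at its lowest. WT replicate 2 had all 8 genes above their mean and was the highest library for 4 of them, while WT replicate 1 had 5 of 8 below.

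Excitatory neuron markers were also lowest in the unnumbered library. Their mean log2 deviations were 0.02, -0.14, 0.06 and -0.09 in hDISC1AA/+ replicate 1, the unnumbered library and replicates 3 and 4, against 0.06, 0.03 and 0.05 in WT replicates 1, 2 and 3. These 8 markers summed to 268270 to 361160 normalized counts in hDISC1AA/+ and 288857 to 337783 in WT libraries, none was at 0, and 6 of 8 had a lower mean in hDISC1AA/+. Their part in the sodium channel values was not tested. Without the unnumbered library, 7 of the 8 channel and Ank3 genes had a lower mean in hDISC1AA/+, with a median of -0.08. All 8 had a lower mean without WT replicate 1, with a median of -0.17, and all 8 again without both WT replicate 1 and hDISC1AA/+ replicate 1, with a median of -0.15. None of the 8 passed the threshold in these fits.

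Levels were compared between genes per kilobase of annotated exon. Scn2b led, with 2561 ± 268 normalized counts per kilobase in hDISC1AA/+ and 2719 ± 36.9 in WT. Scn2a (1224 ± 197 in hDISC1AA/+, 1425 ± 9.70 in WT), Scn3b (1202 ± 65.2 in hDISC1AA/+, 1187 ± 72.9 in WT) and Scn8a (1014 ± 84.5 in hDISC1AA/+, 1064 ± 91.9 in WT) followed at similar levels. Their ranges over the 7 libraries overlapped from one to the next; Scn3b was at or above Scn2a in 2 libraries, and Scn8a was at or above Scn3b in 0.

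A lower tier held Scn1a (507 ± 58.0 in hDISC1AA/+, 576 ± 66.9 in WT), Scn4b (492 ± 61.3 in hDISC1AA/+, 487 ± 68.4 in WT) and Ank3 (448 ± 38.7 in hDISC1AA/+, 501 ± 13.5 in WT), whose ranges overlapped in the same way. Scn3a was last, with 198 ± 42.5 in hDISC1AA/+ and 210 ± 42.4 in WT, and no library brought it to the level of Ank3. The ranges of Scn2b and Scn2a did not overlap, nor did those of Scn8a and Scn1a. The place of Ank3 depends on the length used: annotated exons of Ank3 add up to 34838 bases, while its longest transcript has 9963, and per kilobase of longest transcript Ank3 ranked 3rd of 8 rather than 7th.

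**Figure D4:**
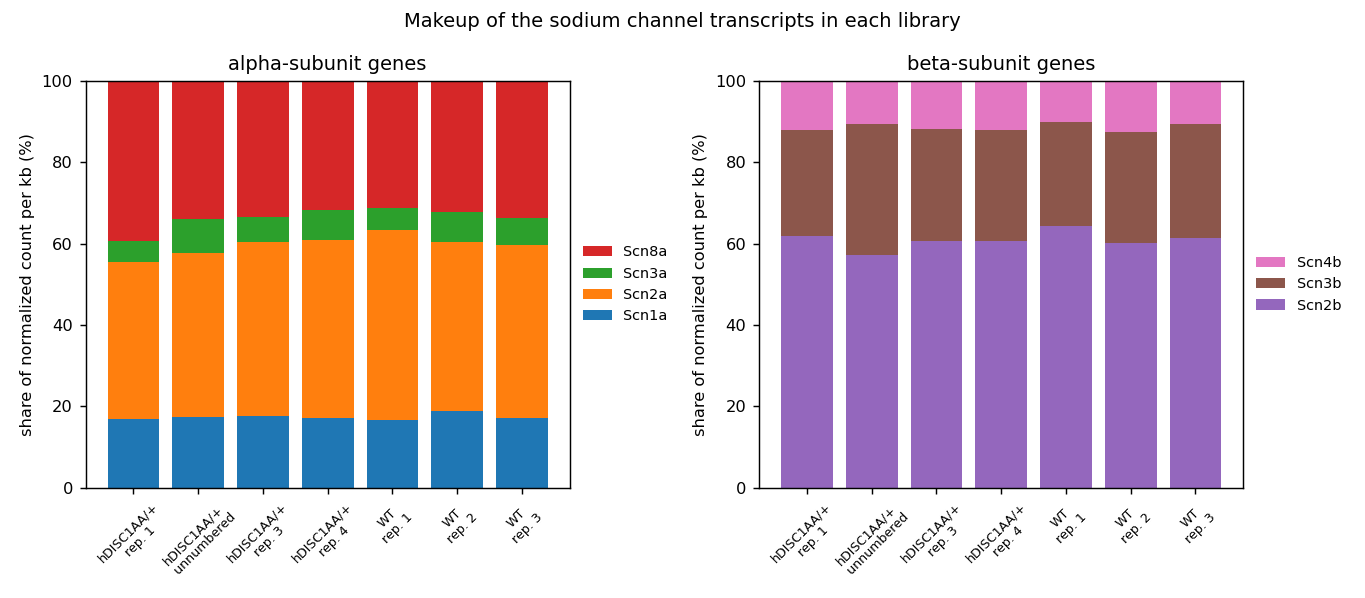
Share of each gene in the summed normalized counts per kilobase of exon (vertical axis, percent) for the 4 alpha genes (left panel) and the 3 beta genes (right panel), 1 bar per library with the 4 hDISC1AA/+ libraries left of the 3 WT libraries. hDISC1AA/+ replicate 1 has the tallest Scn8a segment, 39.4%, and Scn2b is the largest part of every beta bar.

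The makeup of the alpha pool was similar in the groups. Scn2a made up 41.4% ± 2.33 of the summed alpha level per kilobase in hDISC1AA/+ and 43.6% ± 2.71 in WT, and Scn8a 34.6% ± 3.32 in hDISC1AA/+ and 32.4% ± 1.23 in WT. Scn1a made up 17.2% ± 0.285 in hDISC1AA/+ and 17.6% ± 1.20 in WT, and Scn3a 6.74% ± 1.36 in hDISC1AA/+ and 6.38% ± 0.968 in WT. Group ranges overlapped for all 4. In hDISC1AA/+ replicate 1 Scn8a (39.4%) and Scn2a (38.6%) were nearly equal, and which was larger depended on the length used: per kilobase of longest transcript they made up 39.2% and 39.8%.

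The balance of Scn2a and Scn8a is of interest because Scn8a takes over at initial segments as neurons mature. The ratio of their normalized counts, not scaled for length, was 0.792, 0.963, 1.04 and 1.11 in hDISC1AA/+ replicate 1, the unnumbered library and replicates 3 and 4, against 1.20, 1.04 and 1.02 in WT replicates 1, 2 and 3. The ratio was lowest in hDISC1AA/+ replicate 1 and the unnumbered library, and the other hDISC1AA/+ libraries lay within the WT range, so the groups overlapped. Its lowest value was in the library whose deviations GC content and length together explained most. The genes differ in GC content (43.4% for Scn2a, 50.8% for Scn8a). The part of GC content and length in the ratio was not tested.

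Among beta genes, Scn2b made up 60.1% ± 1.93 in hDISC1AA/+ and 61.9% ± 2.08 in WT, Scn3b 28.4% ± 2.60 in hDISC1AA/+ and 27.0% ± 1.21 in WT, and Scn4b 11.5% ± 0.688 in hDISC1AA/+ and 11.1% ± 1.37 in WT. Not scaled for length, summed alpha counts were 1.61, 1.80, 2.15 and 2.05 times the summed beta counts in hDISC1AA/+ replicate 1, the unnumbered library and replicates 3 and 4, against 1.95, 2.08 and 2.08 times in WT replicates 1, 2 and 3. Again the first pair of hDISC1AA/+ libraries was low and the second was not.

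None of the other family genes that could be tested differed past the threshold. Of 7 such genes, 5 could be tested by limma, and all 5 had a higher mean in hDISC1AA/+, with a median log2 fold change of 0.10. That median was 0.0135 without WT replicate 1, 0.18 without hDISC1AA/+ replicate 1 and 0.24 after the GC content and length correction, and 2, 1 and 1 of the 5 then had a lower mean.

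Scn9a, best known from sensory neurons, spanned 61.3 to 211 normalized counts in hDISC1AA/+ and 99.5 to 180 in WT. Scn7a, a sodium-sensing relative that is not voltage-gated in the usual way, spanned 411 to 659 in hDISC1AA/+ and 474 to 574 in WT. The sensory-neuron gene Scn10a averaged 13.9 ± 3.5 in hDISC1AA/+ and 11.4 ± 0.997 in WT. The log2 fold changes of these 3 lay between 0.06 and 0.24, and Scn9a had the widest interval, -0.87 to 1.09. The skeletal muscle gene Scn4a, at 3.09 or below, and the sensory-neuron gene Scn11a, at 7.27 or below, were too low to test.

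Proteins that bind, modify or traffic sodium channels were described as a list of 15 genes. Of these, 11 had a lower and 4 a higher mean in hDISC1AA/+, with a median log2 fold change of -0.04, and 0 passed the threshold in either direction. Among the genes of smallest unadjusted p were the fibroblast growth factor homologs Fgf14 and Fgf13, which bind the channel's C-terminal tail. Fgf14 had 796 in hDISC1AA/+ replicate 1 and 1283, 1519 and 1547 in the other hDISC1AA/+ libraries, against 1516 to 1664 in WT, with a log2 fold change of -0.35 (-0.84 to 0.14). Fgf13 followed at -0.15 (-0.39 to 0.10), and the groups overlapped for all 15 genes. Without WT replicate 1 and hDISC1AA/+ replicate 1, 7 of 15 had a lower mean.

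Scaffold, adhesion and matrix proteins and potassium channels of the initial segment and node formed a list of 25 genes. Of these, 21 had a lower and 4 a higher mean in hDISC1AA/+, with a median log2 fold change of -0.14, and 0 passed the threshold. Tnr encodes tenascin-R, a matrix protein that binds sodium channel beta subunits and surrounds nodes. It had 9167, 9302, 10025 and 9870 normalized counts in hDISC1AA/+ replicate 1, the unnumbered library and replicates 3 and 4, against 11073, 11153 and 11379 in WT replicates 1, 2 and 3. The groups did not overlap. The log2 fold change was -0.22 (-0.41 to -0.04), with an unadjusted p of 0.0209 and an adjusted p of 0.974 by limma. After the GC content and length correction the groups of Tnr still did not overlap, but its log2 fold change was -0.16, with an unadjusted p of 0.0783 and an adjusted p of 0.934 by limma. Tnr was the only gene of the list with an unadjusted p under 0.05 before that correction, which is 1 of 25, beside 2.44% of tested genes.

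Ank2, the ankyrin-B gene, had 31282, 28988, 33809 and 33185 normalized counts in hDISC1AA/+ replicate 1, the unnumbered library and replicates 3 and 4, against 37638, 34869 and 35905 in WT replicates 1, 2 and 3. Its groups did not overlap, and the log2 fold change was -0.19 (-0.38 to 0.01). Cntn1, an adhesion molecule that associates with sodium channel beta subunits, averaged 14949 ± 1575 in hDISC1AA/+ and 17485 ± 1662 in WT, with a log2 fold change of -0.23 (-0.48 to 0.02) and overlapping groups. In all, 5 of 25 genes were lower without overlap (Ank1, Ank2, Sptbn1, Tnr and Lgi1), beside 2.84% of tested genes. After the GC content and length correction Tnr alone of these 5 stayed without overlap, and 19 of 25 had a lower mean without the unnumbered library. Vcan is on this list and also among the precursor markers of oligodendrocytes. Summed, the markers of oligodendrocytes and of their precursors were each highest in WT replicate 1. Vcan itself was highest in the unnumbered hDISC1AA/+ library, at 1186 normalized counts, against 1146 in WT replicate 1. All 9 oligodendrocyte, 5 precursor, 7 astrocyte and 6 microglia markers had a lower mean in hDISC1AA/+, as most of the scaffold list did. So did all 6 immature, 9 of 10 striatal, 6 of 8 excitatory and 5 of 9 inhibitory neuron markers, beside 52.2% of all tested genes. All 7 endothelial and mural markers had a higher mean. Without WT replicate 1, 21 of 25 scaffold genes had a lower mean, beside 51.7% of all tested genes. So did 7 of 9 oligodendrocyte, 3 of 5 precursor, 4 of 7 astrocyte and 4 of 6 microglia markers. Of neuron markers, 5 of 6 immature, 5 of 10 striatal, 5 of 8 excitatory and 6 of 9 inhibitory ones did, and 4 of 7 endothelial and mural markers. The part of glial or other cells in the scaffold values was not tested further. Schip1, named after its values were seen, had the lowest log2 fold change of the list, -0.81, from 204 to 282 in hDISC1AA/+ against 983 in WT replicate 1 and 258 and 301 in WT replicates 2 and 3.

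**Figure D5:**
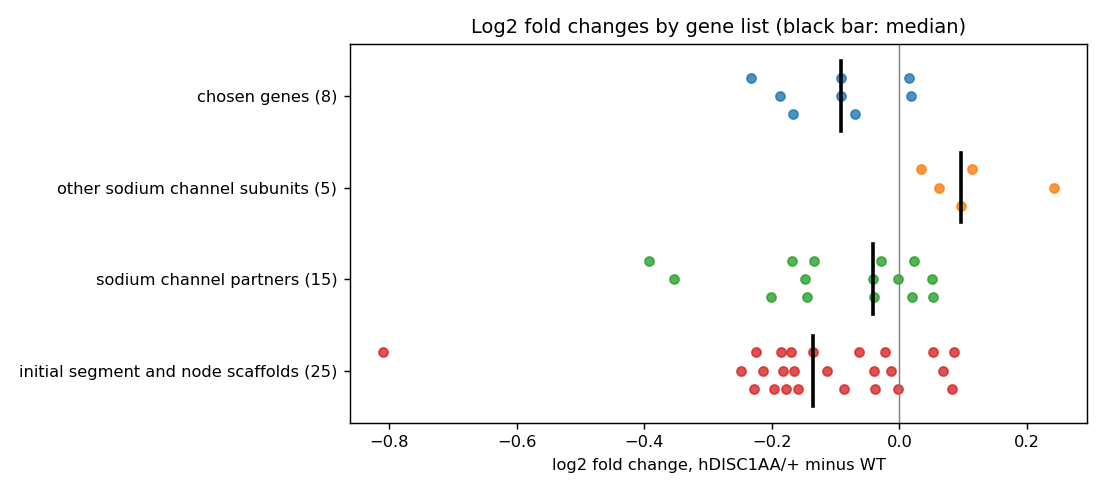
Log2 fold change of hDISC1AA/+ over WT (horizontal axis) for each tested gene of 4 lists, 1 dot per gene, with the median of each list as a black bar and the number of genes in parentheses. The scaffold list has the lowest median, -0.14, with the lowest dot (Schip1) at -0.81, and the dots of the 5 other subunit genes all lie right of 0.

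For 5 of the genes, those whose profile over the 7 libraries came nearest were listed, by the root mean square distance between log2 values centred on each gene's own mean. Scn2a was followed most closely by Akap6 (0.0295), Ptprt (0.0408) and Htr2a (0.0483), where the median distance of a tested gene was 0.286. Ank3 was followed by Wdfy3 (0.0272), Cpd (0.0305) and Katnal1 (0.0334), with a median of 0.244. Scn8a had Lmtk2 (0.0265), Zfp142 (0.0327) and Slc39a14 (0.0328) nearest, Scn1a had Lyst (0.0482), Tnks (0.0531) and Cdh8 (0.0600), and Scn3a had Ino80d (0.0350), Hnrnpa3 (0.0469) and Gm3636 (0.0609). Among the 8 genes themselves, Ank3 was the nearest to Scn1a, in 44th place among tested genes, and to Scn2a, in 94th place. These distances describe 7 libraries that differ in depth and in how far GC content and length explain them, and they carry no test.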

How the data were processed

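Per the labels' protocols, RNA was extracted with Trizol and libraries were made with a NEBNext Ultra RNA kit. Tools listed in the submitters' processing notes, without their roles, are HISAT2 2.1.0, Trimmomatic 0.39, DESeq2 1.26.0 and HTSeq 0.6.1, and the build listed is mm10; annotation and strand setting are not given. The authors deposited 1 signal value per gene and library. Within each column, 100% of values above 0 were whole multiples of 1 step (tolerance 0.01 reads), so they are read counts divided by a size factor, called normalized counts here, and whole reads could be recovered.

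All 7 columns were used, 4 hDISC1AA/+ and 3 WT. Of 43626 identifiers, 42459 matched GENCODE M21 (GRCm38, the assembly mm10 names); 3 further genes whose values stood on separate lines were left out. Genes with at least 10 normalized counts in at least 3 libraries were tested with limma 3.58.1 (R 4.3.3; trend, robust). Alternatives were edgeR 4.0.16 and DESeq2 1.42.0 on recovered reads, other scalings, filters and pseudocounts, array weights, a spline correction for GC content and transcript length, and leaving out libraries. The limma script was tested on simulated data. Every library held at least 33512557 reads in genes, and the number of libraries limits precision further. Levels of different genes were compared per length, except in the ratios of Scn2a to Scn8a and of summed alpha to summed beta counts.

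Named genes were the 8 genes, all tested subunits, the 3 of smallest p per list and the 3 nearest profiles; a few genes this rule names are not reported here. The genes and lists were chosen with earlier results of these data known.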

Additional observations from a re-analysis of the deposited data

Results flagged for a closer look

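Among 55 groups of 4 hDISC1AA/+ values screened (8 sodium channel and Ank3 genes and the related lists), 3 had a library far from the other 3, and chance gives about 1 in 20; none of the 8 genes was among them. Calm2, a gene of the partner list, had 44172 normalized counts in hDISC1AA/+ replicate 1, against 54250 to 56322 in the other hDISC1AA/+ libraries. Adam22, which encodes a membrane receptor for secreted LGI proteins, had 9947 in hDISC1AA/+ replicate 1, against 11523 to 11819 in the others. Csnk2a2, which encodes a catalytic subunit of casein kinase 2, had 1234 in hDISC1AA/+ replicate 4, against 1352 to 1374 in the others.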

How the results depend on the processing

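No gene of the 8, of the lists or of all tested genes passed the threshold under any of 19 alternatives, and between 218 and 1823 genes had an unadjusted p under 0.05. Scn1a, Scn2a, Scn8a, Scn2b and Ank3 kept a negative log2 fold change under all 19. Leaving out 1 library at a time gave -0.27 to -0.10 for Scn1a, -0.31 to -0.16 for Scn2a, -0.26 to 0.0716 for Scn3a, -0.14 to -0.01 for Scn8a, -0.15 to -0.04 for Scn2b, -0.0318 to 0.0537 for Scn3b, -0.0668 to 0.13 for Scn4b and -0.21 to -0.12 for Ank3. The sign also turned after the GC content and length correction for Scn3a (0.0652) and Scn4b (-0.0135), with array weights for Scn3b (-0.0581) and Scn4b (-0.0083), and without WT replicate 1 and hDISC1AA/+ replicate 1 for Scn3b (-0.0453) and Scn4b (-0.13); the cause was not tested. Of the 8 genes, 5 to 8 had a lower mean in hDISC1AA/+ when 1 library was left out.

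Of the other subunits, 1 rather than 0 had a lower mean with DESeq2, array weights, no filter on low values or the GC content and length correction, and 0 to 3 when 1 library was left out. Of the partners, 7 rather than 11 had a lower mean without WT replicate 1 and hDISC1AA/+ replicate 1, and 10 to 13 when 1 library was left out. No paired analysis was possible because the labels give no replicate numbers, and those used here only name the libraries. With 4 and 3 libraries, the intervals given show how precisely each difference was estimated. They are not limits of detection. Tnr, with an interval of -0.41 to -0.04, did not pass the threshold (adjusted p 0.974 by limma).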
